A study of Mus musculus with 9 samples.

Results

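Fkbp5 and Fkbp4 were each knocked down in C2C12 cells, a line of mouse myoblasts that exit the cell cycle and form multinucleate myotubes after serum is reduced, and the changes that the 2 knockdowns had in common are described here. The libraries were an Fkbp5 knockdown, an Fkbp4 knockdown and a control called Neg in the titles, each collected at days 0, 3 and 5 of differentiation. That gave 6 knockdown libraries and 3 control libraries, the whole series of 9, with 1 library per genotype and day. No other allele or agent is named in the labels, which state neither how the genes were knocked down nor whether the days came from separate cultures. Cells grew in medium with 10% fetal bovine serum, differentiation began with 1% insulin-transferrin-selenium, and a further medium is named for the later changes. A gene counted as shared when its level lay on the same side of the same-day control in all 6 knockdown libraries. Both knockdowns were measured against the same 3 control libraries, so a control library that stands apart moves both in the same direction.

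Fkbp5 and Fkbp4 encode FKBP51 and FKBP52, immunophilins that bind the drug FK506 through a peptidyl-prolyl isomerase domain and attach to Hsp90 through a repeat domain. Both sit in Hsp90 complexes with steroid hormone receptors, where FKBP51 is known to lower and FKBP52 to raise hormone binding by the glucocorticoid receptor. FKBP51 also binds kinases and their phosphatases, and the series title links Fkbp5 to muscle differentiation through Cdk4, a kinase that drives cells through G1. The libraries let 1 further question be asked, namely which transcripts moved the same way whichever of the 2 relatives was depleted.

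Total counts lay between 3932372 and 5568486 reads per library, a range of 1.42-fold, and a gene with 0 reads is bounded only by a floor of 3 counts, 0.539 to 0.763 CPM (reads scaled to the same total in each library). These floors cover counting error only. Reads of mitochondrially encoded genes took 2.57%, 4.52% and 10.1% of the Fkbp5 knockdown libraries at days 0, 3 and 5, 1.78%, 3.11% and 5.01% of the Fkbp4 knockdown libraries, and 1.801%, 4.75% and 4.01% of the control libraries. The 6 skeletal myoblast markers and the 6 myotube markers all had reads, with myotube sums of 72.7 to 11018 CPM in the knockdown libraries and 102 to 10038 CPM in the control libraries across the days. Of 6 adipocyte markers 5 were at 0 reads in every library, and the sixth, Fabp4, reached 11 reads in a knockdown library and 2 in a control library. The osteoblast and chondrocyte markers summed to at most 0.829 CPM in the knockdown libraries and 1.12 CPM in the control libraries. Immune and endothelial markers summed to 2.75 to 4.03 CPM in the knockdown libraries and 1.94 to 4.91 CPM in the control libraries, with 4 of 9 at 0 throughout. In such bulk samples fewer cells of a type and less RNA per cell cannot be told apart.

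Of 12498 genes tested, 630 (5.04%) were higher and 516 (4.13%) were lower than the same-day control in all 6 knockdown libraries, 1146 genes (9.17%) in all. The 6 ratios share 3 control libraries, and what share of genes would keep 1 sign with no effect was not tested. The counts alone therefore do not show a shared response. Most of the changes in these 1146 genes were small. The 630 higher genes had a median log2 fold change of 0.29 and the 516 lower genes of −0.30, against 0.01 for all genes tested, and since the sign chose the genes these medians only describe them. In single libraries the median log2 ratio of the higher genes lay between 0.23 and 0.28 and that of the lower genes between −0.31 and −0.23. The least changed of the 6 libraries was at least 1.1-fold from its control for 138 higher and 110 lower genes. It was at least 1.2-fold for 30 higher and 31 lower genes, and at least 1.5-fold for 5 higher and 3 lower genes. These counts include genes at low levels. With a mean level of 5 CPM or more, 105 higher and 91 lower genes reached 1.1-fold, and 16 higher and 19 lower genes 1.2-fold. Only 2 higher and 1 lower gene of that level reached 1.5-fold, among them the pseudogenes Gm16570 (higher) and Gm15464 (lower). A further 11421 genes had reads but too few to be tested.

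**Figure D1:**
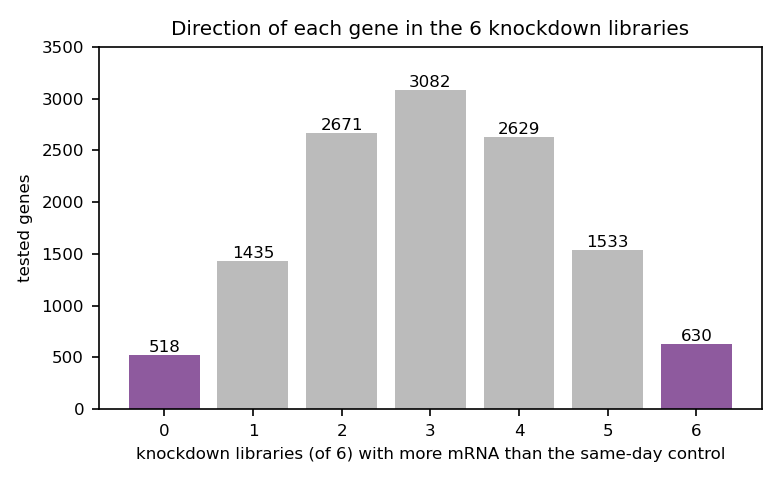
Number of tested genes (y axis) by the number of knockdown libraries, 0 to 6, in which the gene was above its same-day control (x axis). The outer bars hold the genes counted as shared, 630 above control in all 6 libraries and 518 above control in 0, of which 516 were below control in all 6 and the others were level with it in at least 1 library.

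The pooled test of both knockdowns against the control, with day as a block, called 0 genes (0%) at an adjusted p under 0.05 (edgeR quasi-likelihood test, Benjamini-Hochberg adjustment over all 12498 genes), so no gene was shared by both the sign rule and the test. The smallest adjusted p was 0.982, and 591 genes (4.73%) had an unadjusted p under 0.05, of which 319 were higher and 272 lower. On the same design limma voom called 0 genes (597 unadjusted) and DESeq2 called 3. The pooled model treats a difference between the 2 knockdowns as error. Its biological coefficient of variation was 0.179, against 0.125 in a model that gave each knockdown its own term. In that model the Fkbp5 minus Fkbp4 knockdown difference was called for 1671 genes (13.4%), 895 higher and 776 lower in the Fkbp5 knockdown. The Fkbp5 knockdown against the control gave 272 genes (2.18%) and the Fkbp4 knockdown 135 (1.08%), from comparisons that share the control libraries. Only 9 genes were called in both, 3.31% of the Fkbp5 and 6.67% of the Fkbp4 knockdown calls. Of these 9, 3 changed in the same direction and 6 in opposite directions. A change of at least 1.5-fold in the pooled fit was seen for 449 genes (3.59%) in either direction. It was seen for 93 (14.8%) of the genes higher in all 6 libraries and 70 (13.6%) of those lower, shares that follow in part from how those genes were chosen.

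Tested as the mean of the 2 knockdown effects, with each knockdown in its own term, 13 genes were called (0.104%), 13 lower and 0 higher. Of these, 4 lay below the control in all 6 libraries, namely the glycosyltransferase gene B4galt1, the chromatin gene Msl3, the phospholipid scramblase gene Ano6 and the pseudogene Gm15464. In the other 9 the signs were mixed. For 11 of the 13, Msl3 and Gm15464 being the exceptions, the 2 knockdowns also differed from each other at an adjusted p under 0.05. The transcripts described next were picked after their values were seen, so the values describe them and support no wider statement.

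Nek9 and B4galt1 were lower in the Fkbp5 and in the Fkbp4 knockdown when each knockdown was tested on its own, in 2 tests that share the control libraries. Nek9 encodes a NIMA-family kinase that acts upstream of Nek6 and Nek7 in building the mitotic spindle. Its normalised level at days 0, 3 and 5 was 58.4, 103 and 102 CPM in the Fkbp5 knockdown, 69.01, 89.7 and 101 in the Fkbp4 knockdown and 89.5, 129 and 171 in the control. The 6 knockdown libraries lay below the control of their own day, the control level was higher on later days, and the knockdown values of both genotypes were near each other on each day. Nek9 fell by 0.56 on the log2 scale in the Fkbp5 knockdown (standard error, SE, 0.11, adjusted p = 0.0313) and by 0.56 in the Fkbp4 knockdown (SE 0.11, adjusted p = 0.0438). The difference between the knockdowns was 0.00, with a 95% interval of −0.25 to 0.25. The pooled log2 fold change was −0.56 (SE 0.11, unadjusted p = 0.000391, adjusted p = 0.982).

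B4galt1 encodes the Golgi enzyme that adds galactose to the ends of N-linked sugar chains. Its level at days 0, 3 and 5 was 46.3, 61.99 and 53.5 CPM in the Fkbp5 knockdown, 84.3, 88.3 and 83.5 in the Fkbp4 knockdown and 109, 122 and 129 in the control. Every Fkbp5 knockdown value lay below every Fkbp4 knockdown value, and every Fkbp4 knockdown value below every control value. B4galt1 fell by 1.16 in the Fkbp5 knockdown (log2 scale, SE 0.10, adjusted p = 0.000513) and by 0.49 in the Fkbp4 knockdown (SE 0.10, adjusted p = 0.0442). The fall was larger in the Fkbp5 knockdown, with a Fkbp5 minus Fkbp4 difference of −0.67 (95% interval −0.89 to −0.44, adjusted p = 0.00308). The mean of both effects was −0.82 (adjusted p = 0.00407), and the pooled fit gave −0.78 (SE 0.20, unadjusted p = 0.00337).

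Golt1b, a Golgi vesicle transport gene, had even differences. At days 0, 3 and 5 it stood at 92.9, 59.9 and 60.97 CPM in the Fkbp5 knockdown, 91.7, 64.6 and 74.4 in the Fkbp4 knockdown and 131, 90.6 and 89.99 in the control. All knockdown libraries were below their control by similar factors, with log2 ratios from −0.59 to −0.27. Golt1b fell by 0.55 in the Fkbp5 knockdown (SE 0.09, adjusted p = 0.0178), while in the Fkbp4 knockdown the difference was −0.43 (SE 0.09) and did not pass (adjusted p = 0.0606). The Fkbp5 minus Fkbp4 difference was −0.12 (95% interval −0.33 to 0.08).

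On GRCm38 Nek9 (ENSMUSG00000034290) lies on chromosome 12 from 85299514 to 85339362 and B4galt1 (ENSMUSG00000028413) on chromosome 4 from 40804602 to 40854005, both on the minus strand, and Golt1b (ENSMUSG00000030245) on chromosome 6 from 142387221 to 142403858 on the plus strand. The promoters of these 3 genes are shown as examples. Each gene lay below the control in all 6 knockdown libraries and passed the test in at least 1 knockdown. Other genes, such as Msl3, met the same description. Each line gives the 250 bases before and the 50 bases after the annotated start in RefSeq (GRCm38.p6), 5′ to 3′ on the strand of the gene. The windows are chr12:85339313-85339612 (minus strand) for Nek9, chr4:40853935-40854234 (minus strand) for B4galt1 and chr6:142386993-142387292 (plus strand) for Golt1b. Capitals mark the CCAAT box and the GC box GGGCGG on either strand.
Nek9: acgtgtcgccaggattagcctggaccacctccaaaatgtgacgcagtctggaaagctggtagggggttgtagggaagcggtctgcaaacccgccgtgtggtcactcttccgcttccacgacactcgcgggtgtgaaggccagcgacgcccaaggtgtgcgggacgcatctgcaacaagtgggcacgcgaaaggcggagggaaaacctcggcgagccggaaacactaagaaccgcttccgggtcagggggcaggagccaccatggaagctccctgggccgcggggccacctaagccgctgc
B4galt1: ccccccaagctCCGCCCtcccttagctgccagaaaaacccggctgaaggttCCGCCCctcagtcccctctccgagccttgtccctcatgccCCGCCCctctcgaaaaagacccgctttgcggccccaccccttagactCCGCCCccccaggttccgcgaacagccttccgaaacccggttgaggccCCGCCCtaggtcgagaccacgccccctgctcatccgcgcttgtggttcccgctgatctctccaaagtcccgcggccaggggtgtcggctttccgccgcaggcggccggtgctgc
Golt1b: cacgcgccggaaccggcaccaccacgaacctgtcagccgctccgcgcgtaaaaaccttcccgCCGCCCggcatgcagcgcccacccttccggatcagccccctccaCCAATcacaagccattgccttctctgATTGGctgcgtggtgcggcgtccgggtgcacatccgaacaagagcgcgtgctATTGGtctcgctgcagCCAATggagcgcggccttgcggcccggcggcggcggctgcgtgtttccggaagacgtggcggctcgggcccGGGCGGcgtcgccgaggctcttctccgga
The B4galt1 window held GGGCGG 5 times, all on the opposite strand, the Golt1b window held CCAAT 4 times and GGGCGG 2 times, and the Nek9 window held neither. None of the 3 windows held the E box CACGTG, the AP-1 motif TGANTCA or the AGAACA arm of the glucocorticoid response element. The letters are a description of the windows and say nothing of what binds there.

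Msl3, a chromodomain subunit of the MSL histone acetyltransferase complex, stood at 45.00, 31.8 and 32.02 CPM in the Fkbp5 knockdown, 32.3, 28.8 and 23.4 in the Fkbp4 knockdown and 61.2, 42.8 and 52.98 in the control. The knockdown values were below the control on each day, the Fkbp4 knockdown lower than the Fkbp5 knockdown on all 3 days. Msl3 fell by 0.89 in the Fkbp4 knockdown (SE 0.13, adjusted p = 0.0133), and the Fkbp5 knockdown gave −0.54 (SE 0.13, adjusted p = 0.0581). The mean of both effects was −0.71 (SE 0.11, adjusted p = 0.0421) and the difference between them 0.35 (95% interval 0.06 to 0.64, adjusted p = 0.098).

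Growth factor receptors were among the other genes below the control in all 6 libraries. Fgfr1, a receptor for fibroblast growth factors, was at 119, 90.8 and 92.99 CPM in the Fkbp5 knockdown, 145, 84.96 and 74.2 in the Fkbp4 knockdown and 198, 141 and 108 in the control. Its pooled log2 fold change was −0.55 (SE 0.11, unadjusted p = 0.00086), with −0.52 in the Fkbp5 knockdown and −0.57 in the Fkbp4 knockdown, neither past the threshold (adjusted p = 0.0564 and 0.0552). Tgfbr3, the co-receptor betaglycan of the TGF-beta family, was at 9.74, 6.36 and 4.17 CPM in the Fkbp5 knockdown, 7.62, 2.12 and 5.48 in the Fkbp4 knockdown and 15.7, 8.76 and 13.3 in the control. Its least changed library was −0.44 from the control on the log2 scale, the farthest of the 14 lower genes named for that measure, with a pooled change of −1.13 (SE 0.29).

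Cdk8 and Cdc26 were each called in 1 knockdown. Cdk8, the kinase of the Mediator complex, stood at 20.5, 9.76 and 13.2 CPM in the Fkbp5 knockdown, 26.3, 16.1 and 13.7 in the Fkbp4 knockdown and 39.1, 20.1 and 17.2 in the control, which was a fall of 0.79 in the Fkbp5 knockdown (adjusted p = 0.0373) and −0.42 in the Fkbp4 knockdown (adjusted p = 0.225). Cdc26, a subunit of the anaphase-promoting complex, stood at 42.4, 38.1 and 29.8 CPM in the Fkbp5 knockdown, 29.1, 28.97 and 30.98 in the Fkbp4 knockdown and 48.2, 55.1 and 47.7 in the control. Cdc26 fell by 0.76 in the Fkbp4 knockdown (adjusted p = 0.0264) and was at −0.46 in the Fkbp5 knockdown (adjusted p = 0.108). In both genes all 6 knockdown values lay under the control of their day, and only 1 of the 2 knockdowns passed on its own.

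Several lower genes act in redox reactions, transport or secretion. Mgst1, a microsomal glutathione transferase, was at 23.2, 6.59 and 5.92 CPM in the Fkbp5 knockdown, 15.8, 3.53 and 5.27 in the Fkbp4 knockdown and 38.4, 8.99 and 8.95 in the control and fell by 1.15 in the Fkbp4 knockdown (adjusted p = 0.0206), against −0.62 in the Fkbp5 knockdown (adjusted p = 0.124). Slc1a3, a glutamate and aspartate transporter, was at 9.21, 7.72 and 7.24 CPM in the Fkbp5 knockdown, 7.82, 8.30 and 20.2 in the Fkbp4 knockdown and 19.7, 25.6 and 23.5 in the control and fell by 1.51 in the Fkbp5 knockdown (adjusted p = 0.031), against −0.98 in the Fkbp4 knockdown (adjusted p = 0.133). The Fkbp4 knockdown library of day 5 was the one near its control. Olfml3, a secreted protein of the olfactomedin family, was at 36.8, 38.4 and 39.3 CPM in the Fkbp5 knockdown, 37.9, 24.7 and 27.2 in the Fkbp4 knockdown and 48.4, 55.4 and 55.2 in the control and fell by 0.83 in the Fkbp4 knockdown (adjusted p = 0.0335), against −0.47 in the Fkbp5 knockdown (adjusted p = 0.152). The growth cone protein gene Gap43 had nearly equal differences, −0.52 and −0.50, in the Fkbp5 and the Fkbp4 knockdown, neither of which passed (adjusted p = 0.106 and 0.131).

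The remaining genes named on the lower side passed in neither knockdown. They were Ccdc134, the oxidoreductase gene Wwox, the poly(A) polymerase gene Tent5a, Cyb561d2 of the cytochrome b561 family, the desaturase family member Fads6 and Casq1, which encodes the calcium-binding protein calsequestrin of the sarcoplasmic reticulum. Their pooled log2 fold changes ran from −1.62 for Fads6, whose level was at most 4.50 CPM, to −0.46 for Ccdc134. Casq1 had 0 reads in both knockdown libraries of day 0 and 2 reads (0.442 CPM) in the control of that day. Those 2 reads lie under the floor of 3 counts, so the day 0 sign of Casq1 is not resolved. Its level was higher at later days in all 3 genotypes, at 15.1 CPM in the Fkbp5 knockdown, 23.0 CPM in the Fkbp4 knockdown and 28.5 CPM in the control at day 5. Serf2, which encodes a small protein known to promote protein aggregation, was at 50.8, 64.7 and 79.6 CPM in the Fkbp5 knockdown, 42.5, 66.1 and 47.6 in the Fkbp4 knockdown and 61.2, 137 and 167 in the control. Serf2 fell by 1.15 in the Fkbp4 knockdown (adjusted p = 0.027) and was at −0.84 in the Fkbp5 knockdown (adjusted p = 0.0581). The largest gap in Serf2 was at days 3 and 5, and 37.2% of the 31-base words of its transcripts (all stretches of that length, a measure of near-identical sequence) occur in other genes, mainly Hypk, so part of its reads cannot be assigned to it with certainty.

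**Figure D2:**
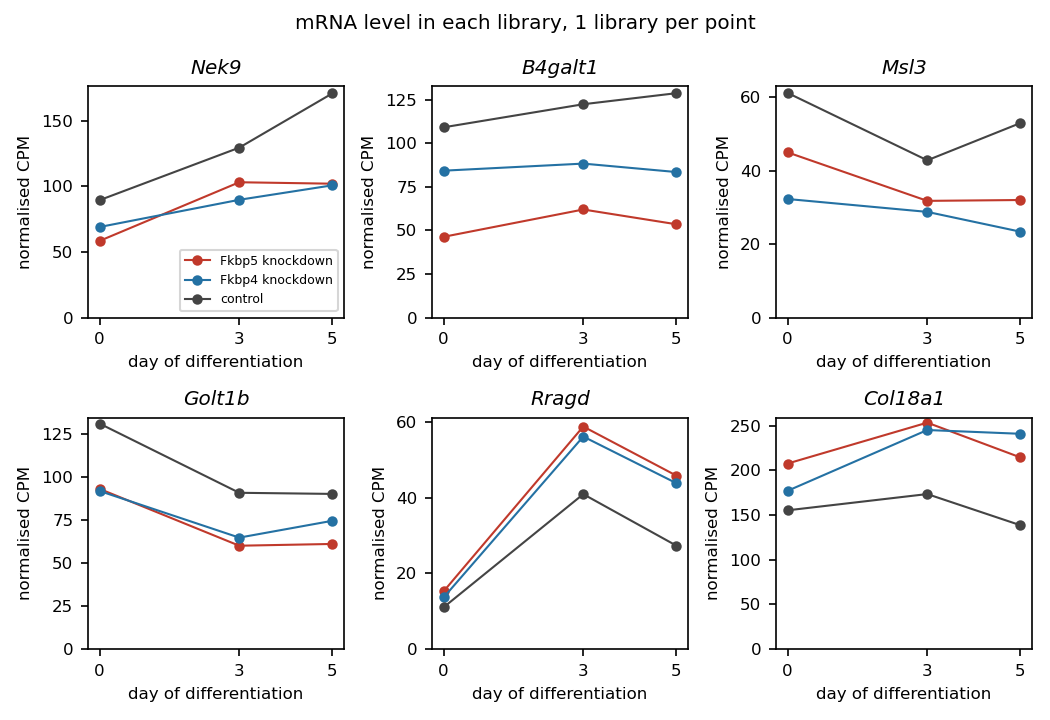
Normalised CPM (y axis) against day of differentiation (x axis) for 6 genes on the same side of the control in all knockdown libraries, with 1 library per point. The red and blue knockdown lines lie under the grey control line in Nek9, B4galt1, Msl3 and Golt1b and above it in Rragd and Col18a1, and in B4galt1 the red Fkbp5 knockdown line lies well under the blue Fkbp4 knockdown line.

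Among the genes above the control in all 6 libraries, Rragd and Col18a1 had the smallest unadjusted p apart from the pseudogene Gm16570. Rragd encodes a Rag GTPase that relays amino acid supply to the growth kinase mTORC1 at the lysosome. It was at 15.3, 58.8 and 45.8 CPM in the Fkbp5 knockdown, 13.6, 56.2 and 43.8 in the Fkbp4 knockdown and 11.04, 40.9 and 27.3 in the control, so that its level was higher at days 3 and 5 than at day 0 in every genotype and the knockdowns lay above the control on each day. Rragd rose by 0.59 in the Fkbp5 knockdown (log2 scale, SE 0.12, adjusted p = 0.03), and the difference in the Fkbp4 knockdown was 0.50 (SE 0.11, adjusted p = 0.0706). The Fkbp5 minus Fkbp4 difference was 0.09 (95% interval −0.16 to 0.33).

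Col18a1, a basement membrane collagen whose end fragment is endostatin, was at 208, 253 and 215 CPM in the Fkbp5 knockdown, 177, 245 and 241 in the Fkbp4 knockdown and 155, 173 and 139 in the control. Every knockdown value lay above every control value. Col18a1 rose by 0.53 in the Fkbp5 knockdown (SE 0.12, adjusted p = 0.0444), and the difference in the Fkbp4 knockdown was 0.50 (SE 0.12, adjusted p = 0.0706). The knockdowns differed by 0.03 (95% interval −0.22 to 0.28), and the pooled change was 0.51 (SE 0.11, unadjusted p = 0.00121).

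By the ratio of their least changed library, 2 membrane genes led the 14 genes named on the higher side. Sytl1, a synaptotagmin-like effector of Rab27, was at 3.95, 16.8 and 17.1 CPM in the Fkbp5 knockdown, 2.21, 13.2 and 16.02 in the Fkbp4 knockdown and 1.104, 8.76 and 10.9 in the control, and its least changed library was 0.54 above the control on the log2 scale. Mctp1, a calcium-binding membrane protein with C2 domains, was at 44.5, 40.2 and 44.3 CPM in the Fkbp5 knockdown, 28.5, 46.1 and 22.6 in the Fkbp4 knockdown and 19.7, 26.7 and 14.3 in the control. Mctp1 rose by 1.13 in the Fkbp5 knockdown (adjusted p = 0.0234) and was at 0.67 in the Fkbp4 knockdown (adjusted p = 0.16).

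In 3 further genes with a higher level in all 6 libraries, the Fkbp5 knockdown passed and the Fkbp4 knockdown did not. Nipsnap1, a protein of the mitochondrial matrix, rose by 0.95 in the Fkbp5 knockdown (adjusted p = 0.0367), against 0.61 in the Fkbp4 knockdown (adjusted p = 0.173). Cdsn, the corneodesmosin gene, rose by 1.12 (adjusted p = 0.0164), against 0.56 in the Fkbp4 knockdown (adjusted p = 0.196). Nyap1, an adaptor of phosphoinositide 3-kinase known from neurons, rose by 1.25 (adjusted p = 0.0379), against 0.60 in the Fkbp4 knockdown (adjusted p = 0.301). The difference between the knockdowns passed in none of these 3, with adjusted p of 0.243 for Nipsnap1, 0.0585 for Cdsn and 0.103 for Nyap1.

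Tap2, which carries peptides into the endoplasmic reticulum for antigen presentation, was above the control throughout but unequally so. It was at 11.1, 24.3 and 20.6 CPM in the Fkbp5 knockdown, 6.22, 12.4 and 10.3 in the Fkbp4 knockdown and 4.86, 9.47 and 8.23 in the control. The Fkbp4 knockdown values were near the control and the Fkbp5 knockdown values far above it. Tap2 rose by 1.30 in the Fkbp5 knockdown (adjusted p = 0.00591), the Fkbp4 knockdown gave 0.36 (adjusted p = 0.335), and the difference of 0.94 passed (95% interval 0.59 to 1.29, adjusted p = 0.00479).

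The other genes named on the higher side passed in neither knockdown. Map4k2, a kinase of the stress-activated pathways, was at 17.4, 22.3 and 23.9 CPM in the Fkbp5 knockdown, 22.5, 23.3 and 22.3 in the Fkbp4 knockdown and 14.1, 17.5 and 13.8 in the control, with a pooled change of 0.54 (SE 0.14, unadjusted p = 0.00355). Its control values lay below all 6 knockdown values except that of the Fkbp5 knockdown at day 0, which was under the day 3 control. The pooled changes of Fn3krp (a kinase that removes sugar adducts from proteins), Carns1 (carnosine synthase), Pla2r1 (a phospholipase A2 receptor), Cyp2j6 (a cytochrome P450) and the transcription factor gene Sox12 ran from 0.49 for Carns1 to 0.97 for Cyp2j6. Carns1 shares 26.7% of its words with 1 other gene. Prl2c3, a proliferin gene, was lower at later days. It was at 578, 4.09 and 11.2 CPM in the Fkbp5 knockdown, 452, 5.65 and 9.91 in the Fkbp4 knockdown and 360, 3.31 and 0.726 in the control. The day 5 control value rests on 3 reads, the floor, so the size of the day 5 gap is not resolved. Its counts are uncertain, since 67.0% of its words occur in Prl2c2. Outside the naming rule, the nuclear RNA Neat1, the scaffold of paraspeckles, was at 155, 254 and 725 CPM in the Fkbp5 knockdown, 191, 408 and 722 in the Fkbp4 knockdown and 133, 204 and 364 in the control. Neat1 rose by 0.84 in the Fkbp4 knockdown (adjusted p = 0.0361) and was at 0.52 in the Fkbp5 knockdown (adjusted p = 0.131).

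**Figure D3:**
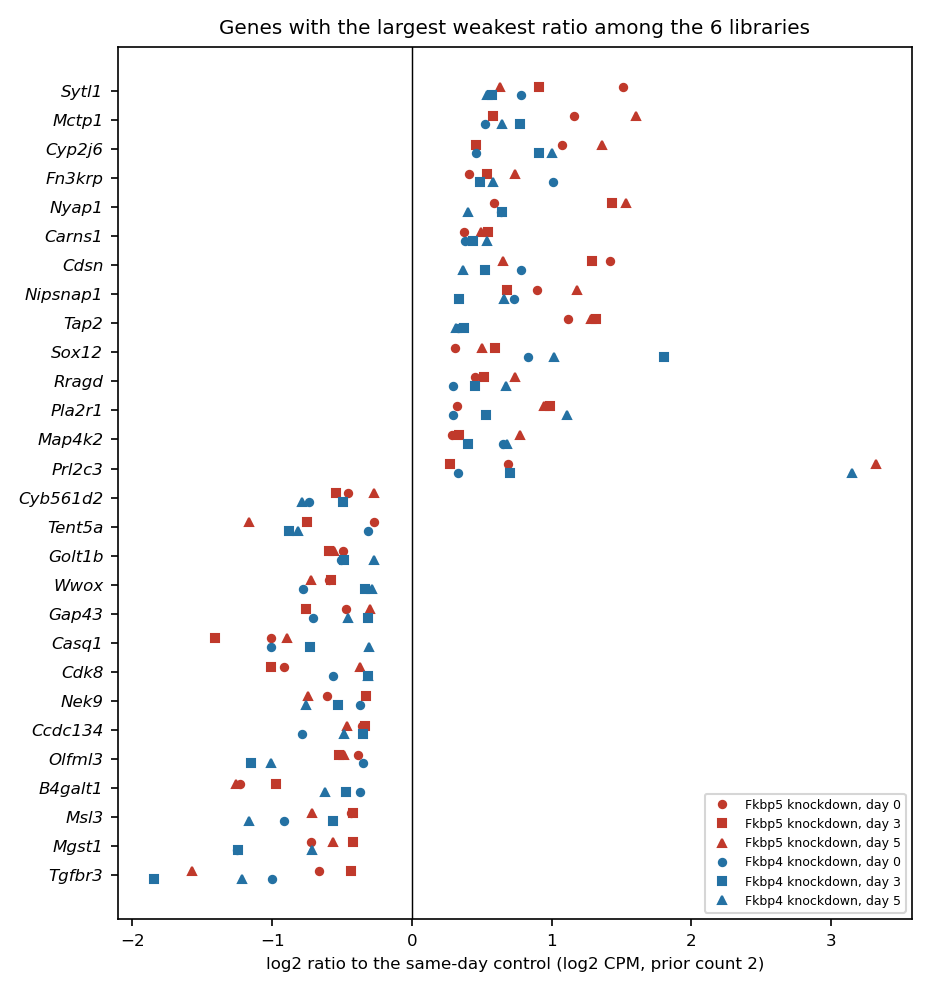
Log2 ratio to the same-day control (x axis, from log2 CPM with a prior count of 2) in the 6 knockdown libraries for the 14 genes per direction with the largest weakest ratio, predicted genes and pseudogenes left out. By choice all points of a gene lie on 1 side of 0, the spread within a gene is wide in Prl2c3, Tgfbr3, Sox12 and Casq1, and narrow in Golt1b, Carns1 and Gap43.

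Large differences came from processed pseudogenes that share sequence with the ribosomal protein gene Rps23, and the copies stood on opposite sides of the control. Gm15464 stood at 0.263, 0.454 and 24.1 CPM in the Fkbp5 knockdown, 0, 0.177 and 0.211 in the Fkbp4 knockdown and 291, 121 and 160.1 in the control. Gm16570 stood the other way, at 97.1, 51.1 and 36.4 CPM in the Fkbp5 knockdown, 28.7, 50.5 and 32.2 in the Fkbp4 knockdown and 18.3, 3.08 and 1.21 in the control, as did Gm17786, at 232, 158 and 98.04 CPM in the Fkbp5 knockdown, 123, 75.6 and 91.1 in the Fkbp4 knockdown and 54.1, 47.6 and 2.90 in the control. Gm15464 fell in both knockdowns, with a log2 fold change of −4.67 in the Fkbp5 knockdown (adjusted p = 0.00875) and −10.31 in the Fkbp4 knockdown (adjusted p = 0.00741), the last a fitted value against libraries with 0 to 1 read that depends on the prior count. Summed over these 3 pseudogenes the level was 329, 209.6 and 159 CPM in the Fkbp5 knockdown, 151, 126 and 124 CPM in the Fkbp4 knockdown and 363, 171 and 164 CPM in the control. The sums of the Fkbp5 knockdown and the control overlapped, and the Fkbp4 knockdown lay below the control on each day. Over Rps23 and its copies with reads, 10 in all, the sums were 354, 219 and 222 CPM in the Fkbp5 knockdown. They were 168, 134 and 130 CPM in the Fkbp4 knockdown and 384, 246 and 173 CPM in the control. The order of the Fkbp5 knockdown and the control at days 3 and 5 thus depended on which copies were summed. The copy Gm13827 alone was at 62.7 CPM in the day 3 control. Rps23 itself was at 13.4, 5.22 and 60.1 CPM in the Fkbp5 knockdown, 11.2, 4.59 and 3.37 in the Fkbp4 knockdown and 11.7, 7.81 and 4.84 in the control. Of the 31-base words of Gm15464, Gm17786 and Gm16570, 54.6%, 37.3% and 12.8% occur in Rps23, and 68.6%, 66.2% and 17.5% in any other gene. Which copy a read was counted under is therefore uncertain for much of Gm15464 and Gm17786 and for a smaller part of Gm16570. How reads that align to several copies were counted is not given in the sources used here. Whether the copies differ in the cells was not tested.

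**Figure D4:**
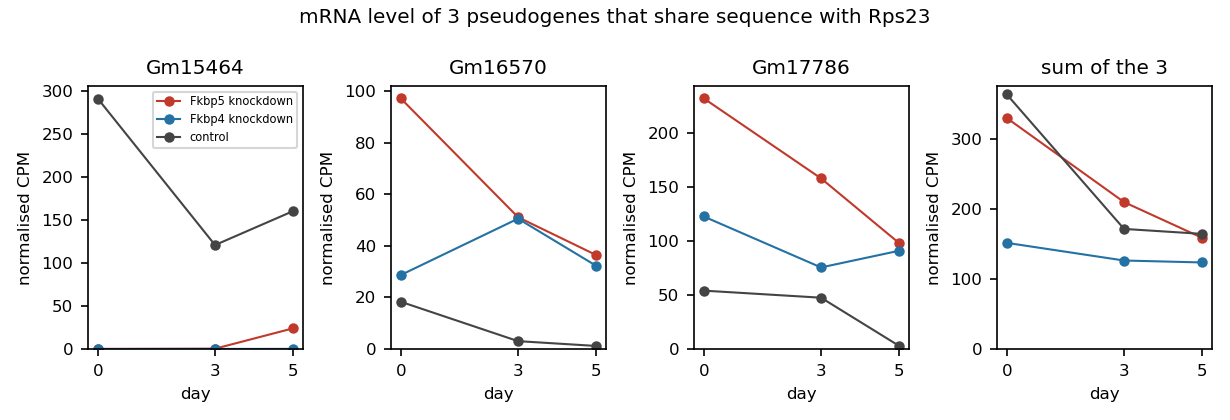
Normalised CPM (y axis) against day (x axis) of 3 processed pseudogenes with Rps23 sequence and of their sum, with 1 library per point. Gm15464 is highest in the control, Gm16570 and Gm17786 are highest in the knockdowns, and in the sum the Fkbp5 knockdown (159 to 329 CPM) overlaps the control (164 to 363 CPM).

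Some genes met the sign rule although 1 knockdown hardly moved. Ano6, a calcium-activated phospholipid scramblase, was at 71.8, 86.1 and 81.4 CPM in the Fkbp5 knockdown, 190.4, 197 and 198 in the Fkbp4 knockdown and 205, 202 and 220.1 in the control. It fell by 1.39 in the Fkbp5 knockdown (adjusted p = 9.96e-05), while its change in the Fkbp4 knockdown was −0.10 (SE 0.09, adjusted p = 0.631), and the 2 knockdowns differed by −1.29 (adjusted p = 0.000102). Spg21, known for a form of spastic paraplegia in humans, had differences of −1.17 in the Fkbp5 and −0.14 in the Fkbp4 knockdown. The reverse held for the growth factor Igf1, which was at 1.58, 19.1 and 23.2 CPM in the Fkbp5 knockdown, 0.802, 8.12 and 15.2 in the Fkbp4 knockdown and 2.43, 21.8 and 32.2 in the control. Igf1 fell by 1.27 in the Fkbp4 knockdown (adjusted p = 0.0175) and was at −0.36 in the Fkbp5 knockdown (adjusted p = 0.365), with a difference of 0.90 (adjusted p = 0.0146). In all, the Fkbp5 minus Fkbp4 difference was called for 39 (7.56%) of the 516 genes lower in all 6 libraries. In 22 of them the change was larger in the Fkbp5 knockdown and in 17 in the Fkbp4 knockdown. It was called for 12 (1.90%) of the 630 higher genes, in 10 with the larger change in the Fkbp5 knockdown and in 2 in the Fkbp4 knockdown. Requiring 1 sign in all 6 libraries favours genes in which the knockdowns are alike, so nothing is read from how these shares compare with 13.4% over all genes.

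The 9 genes called by the mean of both effects that did not keep 1 sign were Fkbp4 itself, Myh4, Pgm5, Smpx, Rmnd5a, Rpn2, Wbp2, Alg10b and Arpc1a. Apart from Fkbp4 their decrease was in the Fkbp5 knockdown. Rpn2, a subunit of the oligosaccharyltransferase, was at 84.7, 62.9 and 66.5 CPM in the Fkbp5 knockdown, 271, 255 and 255 in the Fkbp4 knockdown and 248, 232 and 227 in the control, and its levels in the Fkbp4 knockdown were all above those of the control. The muscle genes Myh4 (fast myosin), Pgm5 and Smpx stood at −3.38, −1.34 and −1.51 in the Fkbp5 knockdown and at 0.63, −0.32 and −0.09 in the Fkbp4 knockdown (log2 fold changes against the control). A mean of 2 such effects can pass without a change in common. For Myh4, 30.4% of its words occur in other genes, mainly Myh1. At day 0 it had 0 reads in the Fkbp5 knockdown, 1 in the Fkbp4 knockdown and 3 in the control, none above the floor.

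In some genes the knockdowns moved in opposite directions, which the pooled fit reads as no change. The cell cycle transcription factor gene E2f2 was at 12.6, 47.9 and 28.5 CPM in the Fkbp5 knockdown, 41.3, 119 and 90.4 in the Fkbp4 knockdown and 30.5, 78.1 and 51.8 in the control. Fkbp5 knockdown values were the lowest and Fkbp4 knockdown values the highest on each day, with a difference of −1.53 (adjusted p = 0.000176) and a pooled change of 0.06. The acetylcholine receptor subunit Chrnd and the integrin Itga4 had the same order, with Fkbp5 minus Fkbp4 differences of −1.44 and −1.79 (adjusted p = 0.000243 and 0.000269). The actin-associated gene Gas2 and the carbonyl reductase gene Cbr2 had the opposite order, with differences of 1.395 and 1.16 (adjusted p = 0.000162 and 0.000663).

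The knocked-down genes themselves checked the labels. Fkbp5 was at 4.47, 3.18 and 4.61 CPM in the Fkbp5 knockdown, 24.5, 7.77 and 16.02 in the Fkbp4 knockdown and 20.1, 7.34 and 14.8 in the control, and Fkbp4 at 255, 146 and 144 CPM in the Fkbp5 knockdown, 60.2, 27.02 and 24.03 in the Fkbp4 knockdown and 241, 143 and 138 in the control. Each was low in its own knockdown and near the control in the other, so neither met the sign rule. Cdk4, named in the series title, was at 741, 316 and 301 CPM in the Fkbp5 knockdown, 685, 342 and 241 in the Fkbp4 knockdown and 660.2, 378 and 249.9 in the control, with a pooled change of 0.01 (SE 0.12, unadjusted p = 0.958) and mixed signs. The cyclin gene Ccnd1, whose protein activates Cdk4 and Cdk6, was above the control in all 6 libraries, at 270.0, 104 and 67.8 CPM in the Fkbp5 knockdown, 346, 95.2 and 81.6 in the Fkbp4 knockdown and 255, 64.1 and 46.9 in the control. Its pooled change of 0.51 (SE 0.13, unadjusted p = 0.00307, adjusted p = 0.982) did not pass, nor did the Fkbp5 knockdown (0.42, adjusted p = 0.135) or the Fkbp4 knockdown (0.59, adjusted p = 0.0606). Cdk6 and the Cdk inhibitor gene Cdkn1a were not shared, with Fkbp5 minus Fkbp4 differences of −1.26 (adjusted p = 0.00067) and −0.64 (adjusted p = 0.0096). The myogenic factors Myod1 and Myog had pooled changes of −0.03 (SE 0.09) and −0.16 (SE 0.32) with mixed signs. The Hsp90 gene Hsp90ab1 and the glucocorticoid receptor gene Nr3c1, whose proteins work with both immunophilins, were at 0.09 (SE 0.11) and 0.01 (SE 0.11) with mixed signs.

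Muscle genes gave few shared changes. Of 45 tested sarcomere genes 0 kept 1 sign in all 6 libraries, against 9.17% of all genes. The pooled test called 0 of all genes tested, so its 0 calls in this and the later lists do not set them apart. The median log2 fold change of the sarcomere genes was −0.62 in the Fkbp5 knockdown and 0.22 in the Fkbp4 knockdown, and −0.07 when pooled. The Fkbp5 minus Fkbp4 difference was called for 26 of the 45, all 26 lower in the Fkbp5 knockdown, a direction called for 6.21% of all genes. Of 27 genes of excitation-contraction coupling and the endplate 0 were higher and 1 was lower in all 6 libraries, Casq1, unresolved at day 0. The medians of these 27 genes were −0.31 in the Fkbp5 knockdown and 0.23 in the Fkbp4 knockdown. Of 18 myogenic transcription factors 1 (5.56%) was higher and 0 were lower in all 6 libraries, against 5.04% and 4.13% of all genes. The pooled test called 0 of the 18, and their medians were −0.22 in the Fkbp5 knockdown and 0.13 in the Fkbp4 knockdown. Of 23 fusion genes 0 kept 1 sign.

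The cell cycle lists were read against 5.04% of all genes higher and 4.13% lower in all 6 libraries. Of 53 mitosis genes 0 were higher or lower in all 6 libraries, and of 30 G1 and S phase regulators Ccnd1 was higher and the S phase kinase gene Cdk2 lower (−0.12, SE 0.10). Of 48 DNA replication genes 3 (6.25%) were lower throughout, namely the thymidylate synthase gene Tyms (−0.34, SE 0.12, unadjusted p = 0.0207), the polymerase subunit Pole2 (−0.21, SE 0.14) and Gins3 of the replicative helicase (−0.34, SE 0.17), and 0 were higher. The replication list as a whole had a pooled median of 0.02. The pooled test called 0 genes in each of these lists.

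The chaperone and immunophilin lists hold partners and relatives of the depleted proteins. Of 37 tested genes of the Hsp90 machinery 4 (10.8%) were higher in all 6 libraries and 1 (2.70%) was lower, against 5.04% and 4.13% of all genes. The higher ones were Hsp90aa1 (0.21, SE 0.13), which shares 51.4% of its words with other genes, the endoplasmic reticulum paralogue Hsp90b1 (0.21, SE 0.12), the myosin chaperone gene Unc45a (0.14, SE 0.12) and the heat shock factor gene Hsf1 (0.14, SE 0.10). The lower one was the Hsp40 gene Dnaja1 (−0.19, SE 0.10). Of 30 other FK506-binding proteins and cyclophilins 1 was lower, Fkbp14 of the endoplasmic reticulum (−0.15, SE 0.10), and 0 were higher. Of 22 glucocorticoid receptor targets 0 were higher and 2 (9.09%) lower, the ubiquitin ligase gene Fbxo32 and the clock gene Per2. Fbxo32 was at 13.2, 83.1 and 80.7 CPM in the Fkbp5 knockdown, 16.4, 82.5 and 79.3 in the Fkbp4 knockdown and 24.96, 92.1 and 94.6 in the control, with a pooled change of −0.35 (SE 0.13, unadjusted p = 0.0197).

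Of 38 N-glycosylation genes 5 (13.2%) were higher in all 6 libraries, against 5.04% of all genes, and 1 (2.63%) was lower. The higher ones act along the pathway in the endoplasmic reticulum and the Golgi. They were Dpagt1 (0.27, SE 0.12), which starts the lipid-linked sugar chain, the glucosidase subunit Ganab (0.24, SE 0.09), the folding sensor Uggt1 (0.32, SE 0.10), the mannosidase Man1a2 (0.16, SE 0.12) and the transferase Mgat1 (0.16, SE 0.09). Uggt1 was at 116, 132 and 133 CPM in the Fkbp5 knockdown, 111, 119 and 114 in the Fkbp4 knockdown and 96.97, 90.6 and 103 in the control, the knockdown above the control on each day. The lower one was the mannosyltransferase gene Alg11 (−0.22, SE 0.12). None of the 6 passed the pooled test, which called 0 of all genes tested. The list median was 0.00, and B4galt1, whose enzyme acts at the end of the same pathway, was not on the list. Of 42 genes of the unfolded protein response Hsp90b1 was higher and Edem1 lower (−0.27, SE 0.11).

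Among matrix and growth factor genes, Col18a1, the basement membrane linker Nid1 (0.42, SE 0.15) and the collagen hydroxylase gene P4ha1 (0.34, SE 0.18) were higher and the gelatinase gene Mmp2 (−0.41, SE 0.13, unadjusted p = 0.0111) was lower, 3 (5.56%) and 1 (1.85%) of 54 matrix genes, against 5.04% higher and 4.13% lower of all genes. P4ha1 was not alike in both, with a Fkbp5 minus Fkbp4 difference of 0.50 (adjusted p = 0.016). The matrix list stood apart between the knockdowns, with medians of 0.26 in the Fkbp5 and −0.24 in the Fkbp4 knockdown and 26 of 54 genes called higher in the Fkbp5 than in the Fkbp4 knockdown, against 7.16% of all genes. Of 32 genes of the insulin-like growth factor and Akt axis, Igfbp5, a binding protein that is strongly induced in C2C12 differentiation, was higher in all 6 libraries, and Igf1 and Igfbp4 were lower. Igfbp5 was at 939, 5461 and 6076 CPM in the Fkbp5 knockdown, 858, 5412 and 5672 in the Fkbp4 knockdown and 742, 3599 and 5056 in the control, with a pooled change of 0.36 (SE 0.12, unadjusted p = 0.0142). Igfbp4 was at 2.37, 2.27 and 5.04 CPM in the Fkbp5 knockdown, 2.61, 4.42 and 5.27 in the Fkbp4 knockdown and 3.76, 6.86 and 6.77 in the control.

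Of 27 TGF-beta and YAP targets and pathway genes 2 (7.41%, Axl and Ajuba) were higher and 3 (11.1%, Id3, Tgfbr1 and Tgfb3) lower in all 6 libraries, against 5.04% and 4.13% of all genes. The list's pooled median of −0.18 was nearly the same in each knockdown, −0.15 in the Fkbp5 and −0.15 in the Fkbp4 knockdown, against 0.01 for all genes. The receptor kinase gene Axl was at 497, 283 and 279.6 CPM in the Fkbp5 knockdown, 509, 225 and 232 in the Fkbp4 knockdown and 421, 208 and 209 in the control, and the inhibitor of myogenic factors Id3 was at 64.5, 7.04 and 5.26 CPM in the Fkbp5 knockdown, 73.4, 8.12 and 6.32 in the Fkbp4 knockdown and 78.4, 13.96 and 6.53 in the control. Their pooled changes were 0.28 (SE 0.11) and −0.39 (SE 0.16). Of 31 immediate early genes 2 (6.45%) were lower, Fosl2 (−0.18) and Zfp36 (−0.36), the last with a called Fkbp5 minus Fkbp4 difference of −0.70 (adjusted p = 0.0319).

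Of 80 nuclear-encoded genes of oxidative phosphorylation 6 (7.50%) were lower and 1 (1.25%) higher in all 6 libraries, against 4.13% and 5.04% of all genes. The lower ones were the complex I subunits Ndufc2 (−0.45, SE 0.14, unadjusted p = 0.00878) and Ndufa13 (−0.12), the complex II subunit Sdhd (−0.20), the cytochrome oxidase subunits Cox4i1 (−0.23) and Cox6a1 (−0.18) and the ATP synthase subunit Atp5g3 (−0.16). The higher one was the ATP synthase subunit Atp5d (0.16). Ndufc2 was at 68.2, 43.4 and 42.1 CPM in the Fkbp5 knockdown, 71.2, 64.5 and 55.6 in the Fkbp4 knockdown and 93.9, 74.1 and 68.2 in the control, below the control on every day, and fell by 0.64 in the Fkbp5 knockdown (adjusted p = 0.0207), against −0.30 in the Fkbp4 knockdown (adjusted p = 0.216). Of 13 mitochondrially encoded genes 0 kept 1 sign, with medians of 0.67 in the Fkbp5 knockdown and −0.27 in the Fkbp4 knockdown. Of 79 ribosomal protein genes 1 was lower, Rpl36a (−0.32, SE 0.10), with 25.3% of its words in other genes, and 0 were higher, and their median was 0.10 in the Fkbp5 and −0.24 in the Fkbp4 knockdown.

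The stress and immune lists had 0 to 3 members on each side, against 5.04% of all genes higher and 4.13% lower. Of 28 interferon response and antigen presentation genes Tap2 and the regulator Nlrc5 (0.60, SE 0.23) were higher and the guanylate-binding protein gene Gbp8 (−1.24, SE 0.35), which shares 31.1% of its words with other genes, was lower, 7.14% and 3.57% of the list. In Gbp8 the Fkbp5 minus Fkbp4 difference was −1.03 (adjusted p = 0.0335). Of 22 genes of RNA silencing and double-stranded RNA sensing 1 (4.55%) was higher and 0 were lower in all 6 libraries. The pooled test called 0 of the 22, and their medians were 0.03 in the Fkbp5 knockdown and 0.04 in the Fkbp4 knockdown. Of 29 p53 targets Ccng1 was higher (0.30, SE 0.13) and 0 were lower. Of 38 antioxidant and redox genes Cat was higher (0.20) and Gss (−0.32) and Hmox1 (−0.24) were lower. Of 42 lysosome and autophagy genes 3 (7.14%, Ctsb, Gaa and Ulk1) were higher and 2 (4.76%, Lamp2 and Gabarap) lower, with pooled changes from −0.24 for Lamp2 to 0.19 for Ctsb. Of 28 cholesterol synthesis genes 0 kept 1 sign. None of these genes passed the pooled test.

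**Figure D5:**
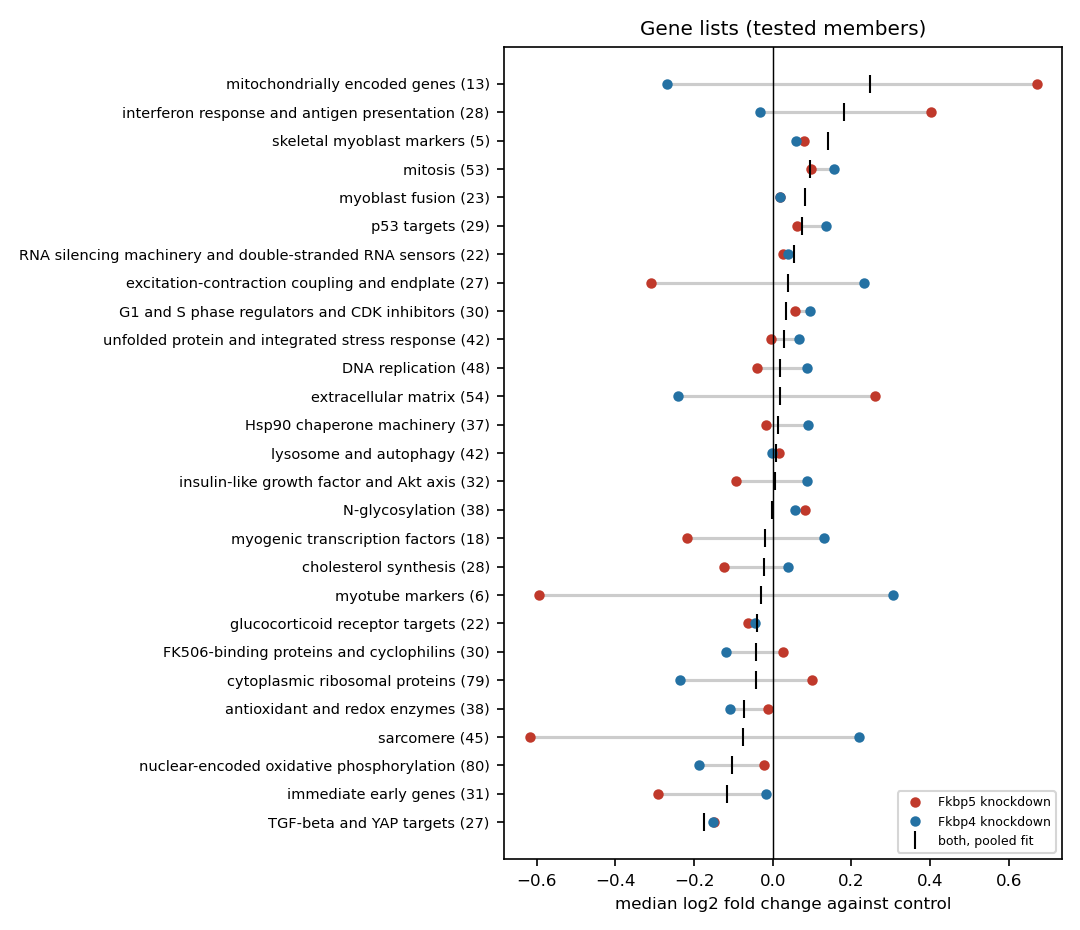
Median log2 fold change against the control (x axis) over the tested members of each gene list (y axis, number of tested members in brackets) in the Fkbp5 knockdown, the Fkbp4 knockdown and the pooled fit. The 2 knockdown medians stand on opposite sides of 0 for sarcomere (−0.62 and 0.22), extracellular matrix (0.26 and −0.24) and mitochondrially encoded genes (0.67 and −0.27). They lie close together in several lists, such as TGF-beta and YAP targets (both −0.15) and myoblast fusion (both 0.02).

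In most other features the shared genes lay close to all genes tested, and none of the differences in share or median was tested. With day 5 set against day 0 over the 3 genotypes, 29.0% of the higher and 28.7% of the lower genes were induced, against 29.5% of all genes. By the same contrast 30.2% of the higher and 32.9% of the lower genes were repressed, against 28.8% of all. Median exon length was 4409 bases for the higher genes, 4186 for the lower genes and 4302 for all, and the median level was 27.4, 29.2 and 31.5 CPM. Protein-coding genes made up 92.5% of the higher and 90.5% of the lower genes, against 90.2% of all, and pseudogenes 5.56% and 7.36%, against 7.17%. No mitochondrially encoded gene was among them, of 22 tested. The RefSeq promoter table held 9108 of the tested genes, 469 of the higher and 381 of the lower ones. On either strand CCAAT was present in 44.6% of the promoters of higher genes and 39.1% of those of lower genes, against 39.1% of the promoters of tested genes and 37.4% of all 32851 promoters in the table. The GC box GGGCGG was present in 65.9%, 65.4%, 66.2% and 35.7% of these 4 sets, the E box CACGTG in 10.2%, 10.5%, 10.5% and 7.15%, and the AP-1 motif TGANTCA in 6.61%, 4.72%, 4.83% and 7.81%. AGAACA, 1 arm of the glucocorticoid response element, was present in 10.4%, 10.8%, 11.6% and 18.97%.

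The difference common to both knockdowns was not shown to change with differentiation. A change of the pooled effect between day 0 and the later days was called for 0 genes (0%) by the edgeR quasi-likelihood test, with 151 (1.21%) at an unadjusted p under 0.05 and a smallest adjusted p of 0.246. With a single library per genotype and day, these tests have 4 residual degrees of freedom. The p-values measure the spread over days, which may be technical, together with the difference between the knockdowns within a day. As in the main pooled model, the knockdowns share a term, so a difference between them enlarges the error.

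At the edge of the sign rule lay genes whose smallest ratio was next to none. Just inside were Hddc3 (−7.41e-05 on the log2 scale in its closest library), Rtca (0.000104) and Ercc5 (0.000120). Just outside were Pdlim5 (0.000131) and Tfb1m (0.000473), lower in the other 5 libraries, and Mapre2 (−0.000340) and Tkfc (−0.000420), higher in the other 5.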

How the data were processed

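PolyA RNA of C2C12 cells was sequenced on a HiSeq2500 after TruSeq RNA v2 library preparation, per the labels. The authors deposited 1 file of unnormalised read counts for each library, with Ensembl gene identifiers. Per the submitters' processing notes, CASAVA 1.8, HISAT2 2.0.2, Subread and featureCounts 1.4.6 were used with mm10. The annotation release, strand setting and handling of reads with several alignments are not given in the sources used here. Of 47728 genes listed, 47309 matched GENCODE mouse release 21 by identifier and 23919 had reads.

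Counts were analysed with edgeR 4.0.16 in R 4.3.3 (filterByExpr with a minimum count of 10, 12498 genes; TMM factors of 0.941 to 1.04; glmQLFit and glmQLFTest, two-sided, Benjamini-Hochberg over all genes tested). Depth was 3932372 to 5568486 counts per library. The main model had day and knockdown (either gene) as additive terms, with 5 residual degrees of freedom. A second model had a term for each knockdown (4 residual degrees of freedom), and another let the pooled effect differ after day 0. SE was obtained from each log2 fold change and its F (the change over the root of F). Log2 ratios to the same-day control used log2 CPM with a prior count of 2. CPM are divided by the normalisation factor. Alternatives were other scaling, no filter, limma 3.58.1, DESeq2 1.42.0, single knockdowns, and leaving out libraries, days or mitochondrially encoded genes. Promoters and motifs came from RefSeq (GRCm38.p6).

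The comparison, gene lists and naming rule were chosen with earlier results of these data known. That rule named 10 genes in any case and otherwise genes called by the pooled test, of which there were 0. After the values were seen, genes called by the mean of both effects, genes called in each knockdown, the 14 per direction with the largest weakest ratio (mean level 5 CPM or more), and the 12 with the smallest pooled p were therefore added, and from each list the members with 1 sign in all 6 libraries. Because there is 1 library per genotype and day, the days stood in for replicates, and in the pooled fits so did the knockdowns. A few genes stayed in every fit and count but are not reported here by name.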

Additional observations from a re-analysis of the deposited data

Results flagged for a closer look

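The 2 knockdowns differed from each other, by a test of the difference itself, in 26 of the genes named above, so that these do not carry a change of common size. The values are Fkbp5 minus Fkbp4 knockdown differences on the log2 scale (edgeR quasi-likelihood test, adjusted p under 0.05). The targets themselves stood at −1.89 for Fkbp5 and 2.34 for Fkbp4. Genes lower in the Fkbp5 than in the Fkbp4 knockdown were the fast myosin gene Myh4 (−4.00), the muscle genes Smpx (−1.42), Pgm5 (−1.02) and Chrnd (−1.44), the glycosylation genes Alg10b (−1.94), Rpn2 (−1.87) and B4galt1 (−0.67), the cell cycle genes E2f2 (−1.53), Cdk6 (−1.26) and Cdkn1a (−0.64), and Wbp2 (−1.84), Itga4 (−1.79), Ano6 (−1.29), Rmnd5a (−1.18), Gbp8 (−1.03), Spg21 (−1.03), Pdlim5 (−0.98), Arpc1a (−0.95) and Zfp36 (−0.70). Genes higher in the Fkbp5 than in the Fkbp4 knockdown were Gas2 (1.395), Cbr2 (1.16), Tap2 (0.94), Igf1 (0.90) and P4ha1 (0.50). Of these, B4galt1, Ano6, Tap2, Gbp8, Spg21, Zfp36, Igf1 and P4ha1 lay on the same side of the control in all 6 knockdown libraries.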

How the results depend on the processing

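With DESeq2 size factors, without mitochondrially encoded genes, without the day block, with limma voom and without day 3, the pooled test called 0 genes. DESeq2 called 3 (1 higher, 2 lower, all with 1 sign in all 6 libraries), namely Gm15464, Gm16570 and Serf2, and the mean of the 2 effects called 13, of which 4 kept 1 sign. Without day 0 the test called 1 gene (Gm16570, higher) and without day 5 it called 1 (Gm15464, lower). With no low-count filter, over 23919 genes, it called 148, of which 15 were shared and higher and 33 shared and lower, 26 of the shared genes also differed between the knockdowns, the change after day 0 was called for 64, and 838 genes were lower in all 6 libraries. Of the 148 calls 125 were genes tested in the main analysis, where the prior degrees of freedom were 4.63, while without a filter the fit gave them no upper limit. The single knockdowns gave 272 calls for Fkbp5 (86 higher and 171 lower on all 3 days) and 135 for Fkbp4 (32 higher and 102 lower on all 3 days). Among named genes called there, the pooled sign was reversed for Chrnd (−0.85), E2f2 (−0.90) and Itga4 (−1.01) in the Fkbp5 knockdown. It was reversed for Gas2 (−0.78) and Cbr2 (−0.60) in the Fkbp4 knockdown. Other named genes had a reversed sign without being called. Examples are Cdkn1a (−0.29) in the Fkbp5 knockdown and Rpn2 (0.14) and Cdk6 (0.27) in the Fkbp4 knockdown.

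Leaving out each library in turn gave 0 to 1 genes called, the 1 being Gm15464 without the Fkbp5 knockdown library of day 5, with 0 to 1 shared and lower and 0 to 0 shared and higher. It gave 783 to 1482 genes higher and 695 to 1407 lower throughout, which follows from the smaller number of ratios. Called differences between the knockdowns ranged from 487 to 2130. They were 487 without the Fkbp5 knockdown library of day 5, 1099 without that of day 0, and 959, 794 and 556 without the Fkbp4 knockdown library of day 0, 3 or 5. The labels carry no replicate numbers, so libraries were matched by day alone, and without the day block 136 genes had an unadjusted p under 0.05, against 591 with it. With 1 library per genotype and day, differences below the spread over days could not be detected. In the pooled fits that spread also held the difference between the knockdowns.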
